A study of Mus musculus with 8 samples.

Results

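Collagen chains, laminin chains and the enzymes that cross-link collagen were examined in cardiac RNA of mice 24 hours after myocardial infarction (MI). The members were the genes named Col followed by a chain number, the Lama, Lamb and Lamc genes of the laminin chains, Lox, Loxl1 to Loxl4 and Plod1 to Plod3, found on the arrays through the RefSeq accession of each probe. Of 20145 genes with a symbol on the arrays, 61 were members, with 88 probes. Of these 61 genes, 48 had a probe that the scanner software marked as clearly brighter than background on 4 or more of the 8 arrays, and the brightest such probe stood for the gene. The arrays carried 1 RNA sample of the ventricles of each of 8 male mice on the C57BL\6 background. In 4 MI mice the anterior interventricular artery had been permanently occluded, and the other 4 mice were sham-operated (sham mice). Whole ventricles were used, so infarcted and spared muscle were not separated, and in such bulk RNA fewer cells of a type and less RNA per cell cannot be told apart.

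Collagens are trimers of chains that wind into a triple helix. Collagens I and III form the fibrils that give the heart wall its tensile strength and make up most of the scar after MI, and collagen V is built into those fibrils. Collagen IV, in the heart mainly as trimers of the Col4a1 and Col4a2 chains, forms the network of basement membranes, the thin sheets around cardiomyocytes, capillaries and smooth muscle cells. Laminins are trimers of an alpha, a beta and a gamma chain that form the second network of these sheets. Lysyl hydroxylases (Plod1 to Plod3) modify collagen lysines inside the cell, and lysyl oxidases (Lox and Loxl1 to Loxl4) oxidize lysines outside the cell, which starts the cross-links between collagen molecules.

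A single slide held all 8 arrays, and each of its 2 rows carried 2 arrays of either group. Per array, 58.6% to 66.4% of spots passed the background mark, and 1 spot was saturated. Values are log2 signals put on 1 scale through the spike-in RNA that each sample received ahead of labeling. This normalization adds a constant of 166 to 257 intensity units to each array, so a probe without signal has a value of 7.65 to 7.75, and differences of dim probes are compressed on this scale. In 17 of the 48 members the mean intensity was under the smallest of these constants in both groups. For this reason the difference of a member is also given in the authors' normalized values and with each array scaled to its 75th percentile for the members in which these moved it most. Levels of different probes were not set against each other, since each probe has its own affinity.

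On the spike-in scale, 2 collagen IV chains and Lox were higher in MI mice, and no member was lower. With scaling to the 75th percentile 2 members, Lama5 and Loxl3, were lower. Col4a1 and Col4a2, which encode the chains of the common collagen IV trimer, were 2.28-fold and 2.07-fold higher, and Lox was 1.61-fold higher. These were 3 of 48 members with a p under 0.05 after Benjamini-Hochberg adjustment over all probes tested with limma, against 3.38% of all probes in that direction. Of the 48 members, 2 also passed 2-fold, both upward, against 0.94% of all probes upward and 0.978% in either direction. No member was lower at an adjusted p under 0.05, against 0.355% of all probes. Without adjustment 6 members were higher and 2 were lower at a limma p under 0.05. The share of all probes at that threshold was not counted, so these counts are only a description. The 4 MI mice lay above the 4 sham-operated mice without overlap in 4 members (Col4a1, Col4a2, Lox and Loxl4), against 6.61% of all probes, and below them in 0 members, against 2.39%. The median difference over the 48 members was 0.05 on the log2 scale and that over all probes was 0.03. The differences were positive in 32 members and negative in 16. Over all retained probes 22017 of 34038 differences were positive, which is a similar share.

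**Figure D1:**
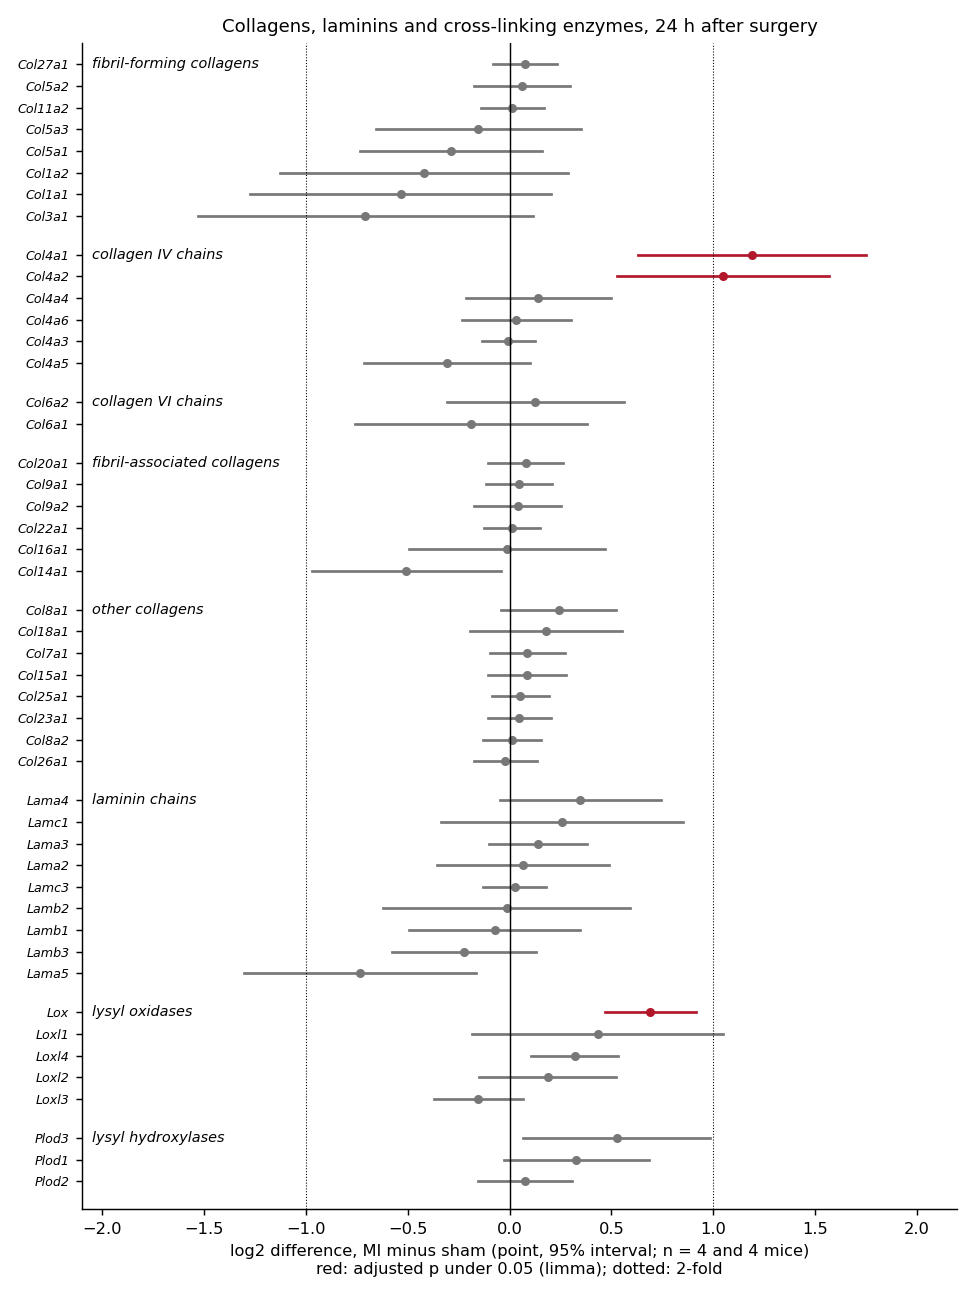
Log2 difference between MI and sham-operated mice (horizontal axis) for 47 members, grouped by role, with its 95% interval from limma (n = 4 and 4 mice) and dotted lines at 2-fold. Only Col4a1, Col4a2 and Lox (red) had an adjusted p under 0.05. Most other points lie close to 0 on this spike-in scale, which compresses the differences of dim probes.

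Of the 45 members that did not pass, 40 had a 95% interval that stayed within 2-fold in both directions. The exceptions were Col1a1, Col1a2, Col3a1, Lama5 and Loxl1. For the 17 dim members a narrow interval on this scale does not bound the change in RNA, because their differences were compressed. Intervals of brighter members hold for this scale only. That of Col14a1, which is not among the 17, was -0.97 to -0.04, while its difference with scaling to the 75th percentile was -1.05.

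Of the 6 collagen IV chains, Col4a1 and Col4a2 rose and the other 4 did not pass the test. The Col4a1 signal was 13.98, 13.61, 14.33 and 13.71 in MI mice 1 to 4 and 13.32, 12.16, 12.74 and 12.65 in sham mice 1 to 4. Every MI mouse was above every sham-operated mouse, and the nearest values of the groups were MI mouse 2 and sham mouse 1. The mean was 13.91 ± 0.32 (SD, n = 4) in MI mice and 12.72 ± 0.48 in sham mice, a log2 difference of 1.19 ± 0.25 (SE, limma adjusted p = 0.0356). The Col4a2 signal was 14.15, 13.73, 14.41 and 13.79 in MI mice and 13.49, 12.46, 13.06 and 12.88 in sham mice. The mice stood in the same order for both genes within each group. The Col4a2 difference was 1.05 ± 0.23 (SE, limma adjusted p = 0.0445). In an exact two-sided permutation test p was 0.0286 for each of both genes, which is the smallest value that 4 against 4 mice can give.

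Neither call held in all fits with fewer mice. With 1 mouse left out at a time, the log2 difference stayed between 1.00 and 1.39 for Col4a1 and between 0.88 and 1.22 for Col4a2. The limma adjusted p of both genes was over 0.05 without MI mouse 1, 3 or 4 or sham mouse 2, 3 or 4, and reached 0.109 for Col4a1 and 0.134 for Col4a2. With array row as a block the limma adjusted p was 0.0527 for Col4a1 and 0.0648 for Col4a2. Within the rows of the slide, the Col4a1 difference was 1.06 in the first and 1.32 in the second, and the Col4a2 difference was 0.97 and 1.13.

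Col4a1 and Col4a2 lie head to head on chromosome 8 and are transcribed in opposite directions from a shared promoter. RefSeq promoter windows (GRCm38.p6, 250 bases before to 50 bases after each annotated start) are shown because these were the members that rose together. The window of Col4a1 is chr8:11312777-11313076 on the minus strand and that of Col4a2 is chr8:11312555-11312854 on the plus strand. The annotated starts are 21 bases apart, at 11312826 for Col4a1 and 11312805 for Col4a2, so the annotated transcripts overlap between them. The 78 bases that the windows share, as reverse complements, are in capitals.
Col4a1: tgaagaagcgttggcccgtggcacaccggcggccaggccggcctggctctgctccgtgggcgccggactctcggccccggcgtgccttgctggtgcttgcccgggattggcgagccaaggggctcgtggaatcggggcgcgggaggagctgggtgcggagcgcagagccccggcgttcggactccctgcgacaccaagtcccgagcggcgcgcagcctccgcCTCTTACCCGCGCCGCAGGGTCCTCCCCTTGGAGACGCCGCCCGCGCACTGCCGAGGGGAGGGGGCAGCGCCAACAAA
Col4a2: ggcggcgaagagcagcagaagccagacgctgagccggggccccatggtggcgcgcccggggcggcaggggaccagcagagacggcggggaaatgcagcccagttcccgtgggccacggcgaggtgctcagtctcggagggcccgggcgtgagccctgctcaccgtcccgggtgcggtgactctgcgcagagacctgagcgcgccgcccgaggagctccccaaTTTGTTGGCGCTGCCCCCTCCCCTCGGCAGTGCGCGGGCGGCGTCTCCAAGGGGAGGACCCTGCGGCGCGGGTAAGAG
The GC content was 74.0% in the Col4a1 window and 73.7% in the Col4a2 window, against a median of 52.7% over all promoter windows. The Sp1 box, searched as GGGCGG on both strands, occurred in both windows, with 1 match inside the shared bases. It occurred in 35.66% of 32851 windows of the same length in the mouse table and in 66.67% of the 36 windows of members, which belonged to 32 genes. CCAAT occurred once in each window and in 37.41% of all windows. No CCAAT match lay wholly within the shared bases, and that of the Col4a2 window ran across their edge. The ACGTG form of the hypoxia response element core (in 19.62% of all windows) was not found in either window. Neither were the TATA box (TATAAA, in 13.62%) and the AP-1 site (TGACTCA, in 5.202%). Other forms of these elements were not searched, and the form GCGTG of the hypoxia core can be read in both printed windows. A match of letters is not evidence of binding, and these windows do not hold enhancers.

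The other collagen IV chains did not follow. Col4a5, a chain of the trimer with Col4a6 in some basement membranes, had 9.70, 9.30, 9.73 and 10.16 in MI mice and 9.91, 9.89, 10.34 and 9.96 in sham mice. The groups overlapped, and the difference was -0.31 ± 0.18 (SE, limma adjusted p = 0.503). It was -0.40 in the authors' values and -0.54 with scaling to the 75th percentile, without passing. Col4a3, Col4a4 and Col4a6 had differences of -0.01, 0.14 and 0.03, and that of Col4a3 was -0.23 with scaling to the 75th percentile.

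**Figure D2:**
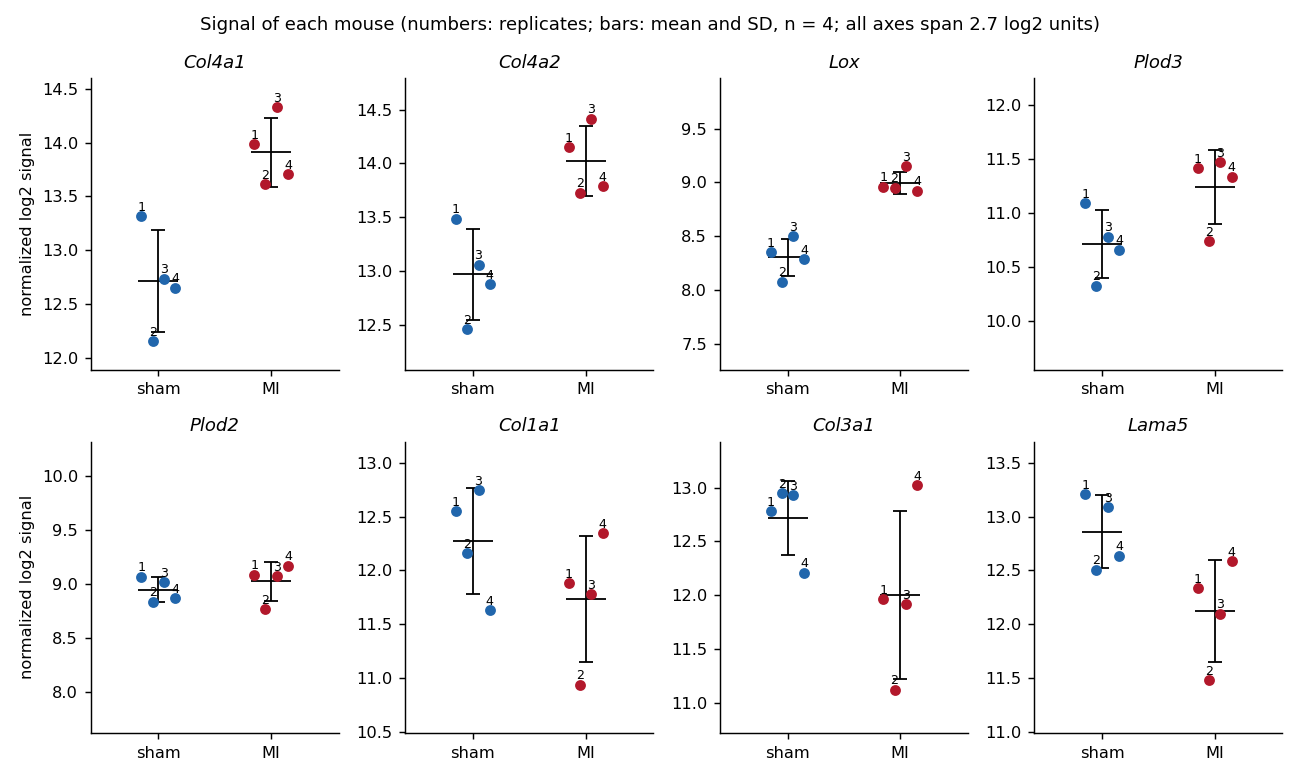
Normalized log2 signal (vertical axes, all of the same span) of 8 members in each mouse, sham-operated mice in blue and MI mice in red, with replicate numbers and bars for mean and SD (n = 4). The groups of Col4a1, Col4a2 and Lox do not overlap, while those of the other 5 genes do.

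Among the lysyl oxidases, Lox rose, and Loxl4 rose in the authors' values and with scaling to the 75th percentile. The Lox signal was 8.96, 8.95, 9.15 and 8.92 in MI mice and 8.35, 8.08, 8.50 and 8.29 in sham mice, with no overlap. The SD (n = 4) was 0.10 within MI mice and 0.17 within sham mice, and the difference of the means was 0.69 ± 0.10 (SE, limma adjusted p = 0.00673, exact permutation p = 0.0286). The adjusted p stayed under 0.05 without each of the 8 mice in turn, with differences between 0.62 and 0.76. The probe was dim, with mean intensities of 320.5 (MI) and 103 (sham), so the size of the change depends on the additive constant. The Lox difference was 1.40 in the authors' values and 1.38 with scaling to the 75th percentile, which are 2.63-fold and 2.60-fold. A second, dimmer Lox probe differed by 0.24 (limma adjusted p = 0.222) on the spike-in scale and by 0.91 (limma adjusted p = 0.0151) in the authors' values.

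Loxl4, a lysyl oxidase-like enzyme, was dimmer still, with mean intensities of 109.8 and 40.4. Its signal was 8.28, 8.06, 8.39 and 8.42 in MI mice and 8.05, 7.86, 8.04 and 7.92 in sham mice. MI mouse 2 exceeded sham mouse 1 by less than the spread within either group, and no values overlapped. The difference was 0.32 ± 0.09 (SE, limma adjusted p = 0.124). The authors' values gave a 2.14-fold difference (limma adjusted p = 0.00451) and scaling to the 75th percentile a 2.24-fold difference (limma adjusted p = 0.00331). The second Loxl4 probe had log2 differences of 0.19 on the spike-in scale, 0.97 in the authors' values and 1.13 with scaling to the 75th percentile.

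Loxl1, which acts on elastic fibers, had a difference of 0.43 ± 0.27 (SE, limma adjusted p = 0.546), and its second probe one of 0.46. The 3 probes of Loxl2 had differences of 0.19, 0.20 and 0.20, none of which passed the test. Loxl3 had a difference of -0.15 (limma adjusted p = 0.542), one of -0.46 (limma adjusted p = 0.296) in the authors' values, and it was lower with scaling to the 75th percentile, by 0.68 (limma adjusted p = 0.0257). On the spike-in scale all 3 lysyl hydroxylases had positive differences that did not pass. Plod3, which also adds sugars to collagen hydroxylysine, had 11.42, 10.74, 11.47 and 11.33 in MI mice and 11.09, 10.32, 10.78 and 10.66 in sham mice. On that scale MI mouse 2 lay among the sham-operated mice, and the difference was 0.53 ± 0.20 (SE, limma adjusted p = 0.242). With scaling to the 75th percentile the Plod3 groups did not overlap, and the difference was 0.45 (limma adjusted p = 0.0354). Plod1 differed by 0.33 ± 0.16 (SE, limma adjusted p = 0.373). Plod2, the hydroxylase of the collagen telopeptides that is known for its part in fibrosis, had 9.09, 8.77, 9.07 and 9.17 in MI mice and 9.07, 8.83, 9.02 and 8.87 in sham mice. The groups lay within the same range, and the difference was 0.08 ± 0.10 (SE, limma adjusted p = 0.856). It was -0.01 with scaling to the 75th percentile.

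No fibril-forming collagen passed the test in either direction. The 3 collagen I and III chains had negative differences with wide intervals. The Col1a1 signal was 11.88, 10.94, 11.78 and 12.34 in MI mice and 12.55, 12.16, 12.74 and 11.63 in sham mice. The groups overlapped, with sham mouse 4 below 3 of the 4 MI mice. The difference was -0.53 ± 0.32 (SE, 95% interval -1.27 to 0.20, limma adjusted p = 0.526, exact permutation p = 0.229). The Col3a1 signal was 11.96, 11.13, 11.92 and 13.02 in MI mice and 12.78, 12.95, 12.93 and 12.21 in sham mice. MI mouse 4 had the highest value of all 8 mice, while the other 3 MI mice were below every sham-operated mouse. The difference was -0.71 ± 0.36 (SE, 95% interval -1.53 to 0.11, limma adjusted p = 0.415). Col1a2 had 13.21, 11.95, 13.12 and 13.18 in MI mice and 13.78, 13.16, 13.40 and 12.82 in sham mice. Its difference was -0.42 ± 0.31 (SE, limma adjusted p = 0.641), and MI mouse 2 was more than 1 log2 unit below the rest of its group.

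These differences were larger in the first row of the slide than in the second. In the first row, with MI mice 1 and 2 and sham mice 1 and 2, the difference was -0.94 for Col1a1, -1.32 for Col3a1 and -0.88 for Col1a2. In the second row it was -0.12, -0.10 and 0.04. Each row holds 2 mice of each group, and the difference between the rows was not tested. The fibril collagens V, which regulate fibril diameter, differed by -0.29 (Col5a1), 0.06 (Col5a2) and -0.15 (Col5a3). Col5a1 differed by -0.40 in the authors' values and by -0.54 with scaling to the 75th percentile, without passing. Col11a2 and Col27a1 were dim and differed by 0.01 and 0.07. Col27a1 differed by 0.37 in the authors' values and by 0.35 with scaling to the 75th percentile, without passing.

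No laminin chain passed the test on the spike-in scale. Lama5, an alpha chain of vascular and epithelial basement membranes, had the most negative difference of all members. Its signal was 12.34, 11.48, 12.10 and 12.58 in MI mice and 13.21, 12.51, 13.09 and 12.64 in sham mice. MI mouse 4 was above sham mouse 2, and all other MI mice were below all sham-operated mice. The difference was -0.73 ± 0.25 (SE, limma adjusted p = 0.184). With scaling to the 75th percentile it was -0.90 (limma adjusted p = 0.0101), and the groups did not overlap.

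Lama2, the alpha chain of the main cardiomyocyte laminin, differed by 0.07 ± 0.18 (SE, limma adjusted p = 0.944). Lama4, the alpha chain typical of endothelial basement membranes, differed by 0.35 ± 0.17 (SE, limma adjusted p = 0.404). Lamb1, Lamb2 and Lamc1, the partners of these alpha chains, differed by -0.07, -0.01 and 0.26. Lama3, Lamb3 and Lamc3 differed by 0.14, -0.22 and 0.02.

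None of the remaining collagens passed the test under any of these 3 normalizations. Collagen VI, a microfibril around cells, was represented by Col6a1 and Col6a2, which differed by -0.19 and 0.13. Of the 6 collagens associated with fibrils, Col14a1 had the most negative difference, with 8.71, 8.33, 8.62 and 9.13 in MI mice and 9.13, 9.42, 9.50 and 8.76 in sham mice. The groups overlapped, with MI mouse 4 above sham mouse 4. The difference was -0.51 ± 0.20 (SE, limma adjusted p = 0.271), while a second, dimmer Col14a1 probe differed by 0.01. The first probe differed by -0.87 (limma adjusted p = 0.0906) in the authors' values and by -1.05 (limma adjusted p = 0.0602) with scaling to the 75th percentile. The other 5 differed by -0.01 (Col16a1) to 0.08 (Col20a1). Of the 8 other collagens, Col8a1, a short-chain collagen of vessels, had the largest difference, 0.24 ± 0.12 (SE, limma adjusted p = 0.421). Col18a1, whose end fragment is endostatin, differed by 0.18, and the others by -0.02 (Col26a1) to 0.09 (Col7a1). Sizes of the dim genes depended on the scale. Col15a1 differed by 0.09 on the spike-in scale, by 0.72 (limma adjusted p = 0.101) in the authors' values and by 0.28 with scaling to the 75th percentile. Col25a1 differed by 0.05 on the spike-in scale and by 0.60 (limma adjusted p = 0.110) with scaling to the 75th percentile. Col8a1 differed by 0.45 in the authors' values and 0.34 with scaling to the 75th percentile, and Col26a1 by -0.10 and -0.35.

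For 13 members no probe passed the background mark on at least 4 arrays: Col2a1, Col6a4, Col6a5, Col6a6, Col9a3, Col10a1, Col11a1, Col13a1, Col17a1, Col19a1, Col24a1, Col28a1 and Lama1. Several of these are chains of cartilage or epithelium. Col28a1 passed it on 1 array, of an MI mouse, and the other 12 genes on none. For Col6a3 and Col12a1 no probe was paired through an accession, so they were not analysed here.

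The count of members past the test depended on how the arrays were put on 1 scale. In the authors' normalized values 4 members passed both 2-fold and the adjusted p, against 2.99% of all probes: Col4a1 (2.31-fold), Col4a2 (2.08-fold), Lox (2.63-fold) and Loxl4 (2.14-fold). These 4 were also all that were higher at an adjusted p under 0.05 at any fold, against 5.05% of all probes, and 0 were lower, against 0.976%. With scaling to the 75th percentile 6 members were higher at an adjusted p under 0.05, against 8.7% of all probes, and 2 were lower, against 8.84%. Those higher included Col4a1, Col4a2, Lox, Loxl4 and Plod3, and the 2 lower were Lama5 and Loxl3. With that scaling 3 members passed 2-fold, against 4.24% of all probes. With it the groups did not overlap in 8 members upward, against 11% of all probes, and in 3 downward, against 12.7%. Col4a1, Col4a2 and Lox passed the adjusted p under each of these normalizations, and Col1a1, Col1a2 and Col3a1 passed under none of them.

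**Figure D3:**
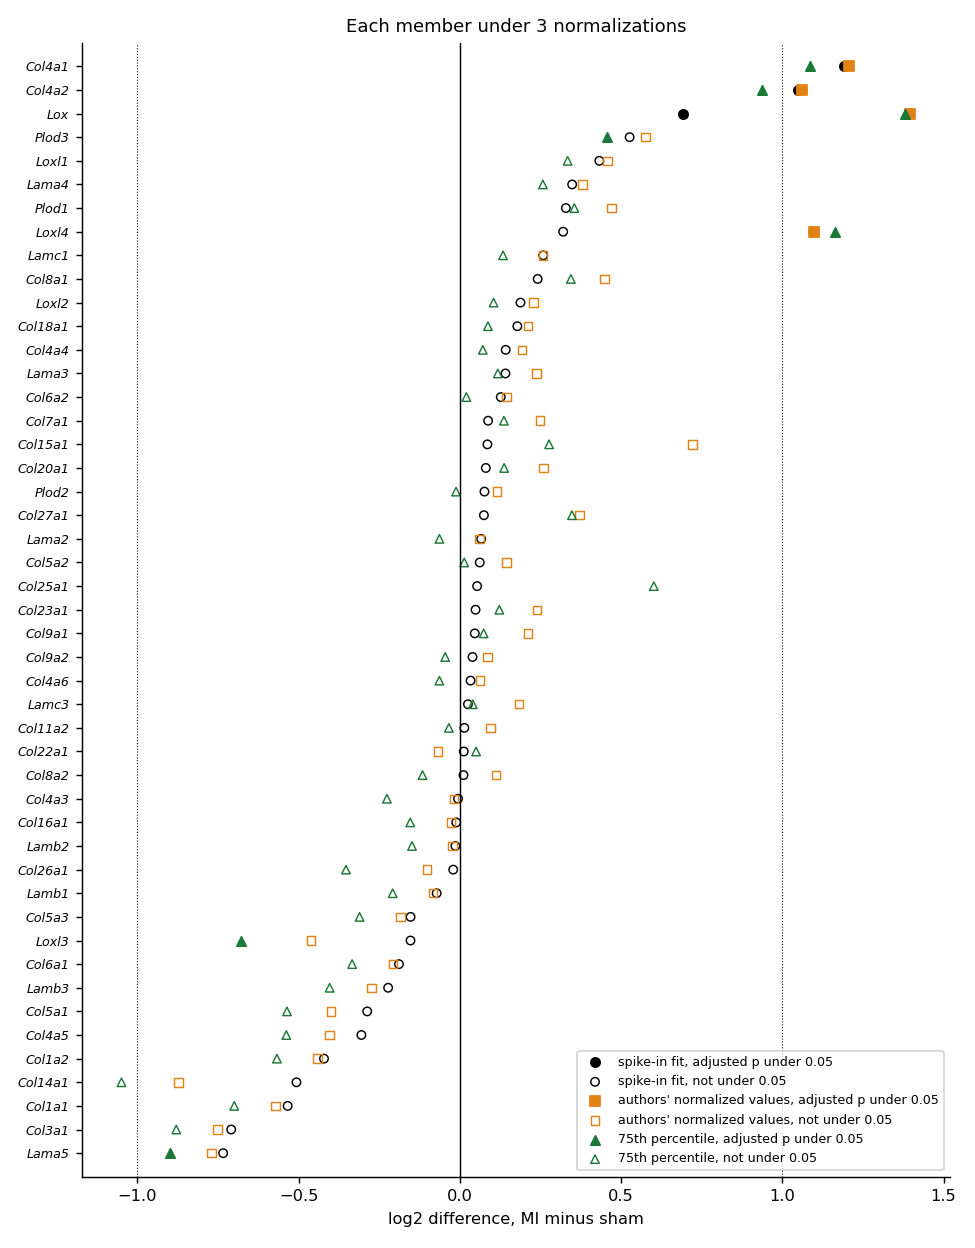
Log2 difference between MI and sham-operated mice (horizontal axis) of 47 members in the spike-in fit (circles), the authors' normalized values (squares) and values scaled to the 75th percentile (triangles). Filled symbols have an adjusted p under 0.05 (limma, n = 4 and 4 mice), and dotted lines mark 2-fold. The symbols of bright genes such as Col4a1 lie close together, while the dim genes Lox and Loxl4 lie near 1 or above outside the spike-in fit. Col25a1 has no square.

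Differences between probes of the same array do not depend on any scaling of that array. The log2 intensity of Col4a1 minus that of Col1a1 was 1.40 to 2.81 in MI mice and -0.01 to 1.07 in sham mice. That of Col4a1 minus Col3a1 was 0.70 to 2.60 in MI mice and -0.82 to 0.55 in sham mice. That of Lox minus Col1a1 was -4.17 to -2.60 and -5.98 to -4.81. The groups did not overlap in any of these 3 differences. The difference of Col4a1 and Col4a2 was -0.17 to -0.08 in MI mice and -0.33 to -0.17 in sham mice, so that it varied far less between the 8 mice than the other differences. These pairs were chosen after the values were seen and were not tested. Since the first 3 pairs were chosen from genes with differences of opposite sign, the separation of the groups is a description and adds no evidence.

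**Figure D4:**
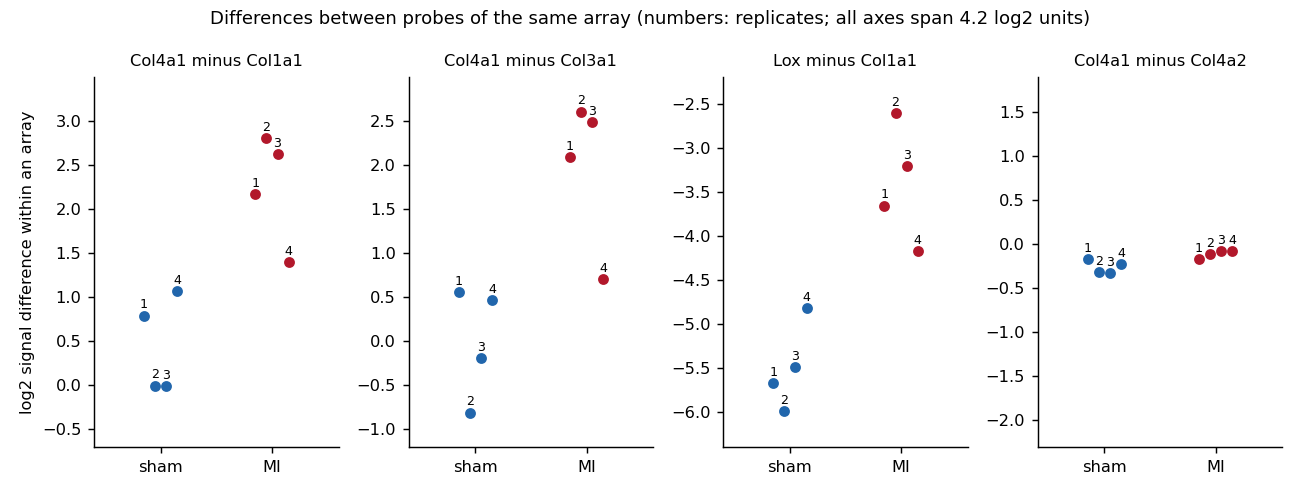
Difference of the log2 intensities of a pair of probes on the same array (vertical axes, all of the same span) for each sham-operated (blue) and MI (red) mouse, with replicate numbers. The MI mice lie above the sham-operated mice for Col4a1 minus Col1a1, Col4a1 minus Col3a1 and Lox minus Col1a1, and close to them for Col4a1 minus Col4a2.

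On the spike-in scale members varied together between mice of the same group, and all probes moved in the same direction in most mice. MI mouse 2 was below its group mean in 48 of 48 members, with a median deviation of -0.25, and its median deviation over all probes was -0.18. Sham mice 2 and 4 were below their group mean in 46 members each, and sham mice 1 and 3 were above it in 44 each. Median deviations of sham mice 1 to 4 were 0.13, -0.14, 0.11 and -0.07 over members and 0.06, -0.12, 0.08 and -0.03 over all probes. With scaling to the 75th percentile MI mouse 2 was not low for Col4a1, at 5.18 against 4.83 to 5.30 in the other MI mice. It stayed the lowest for Col1a2, at 3.47 against 4.06 to 4.30. Members share the array of each mouse, so these counts are not independent observations.

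Genes that fold, process or bind collagens and laminins were compared in 4 lists of 46 genes, of which 42 had a retained probe. On the spike-in scale 1 rose and 0 fell at an adjusted p under 0.05, against 3.38% and 0.355% of all probes. In the authors' values 2 were higher and 1 was lower, against 5.05% and 0.976%, and with scaling to the 75th percentile 2 were higher and 3 lower, against 8.7% and 8.84%. Their median difference was 0.06 on the spike-in scale. The gene that rose was Itgb1, the beta chain shared by the collagen-binding and many laminin-binding integrins. It had 11.56, 11.62, 11.81 and 11.88 in MI mice and 10.84, 10.66, 10.96 and 10.98 in sham mice. The groups did not overlap, with a difference of 0.86 ± 0.10 (SE, limma adjusted p = 0.00276), and passed without each mouse in turn. Itga3, an alpha chain of a laminin-binding integrin, had a difference of 0.59 ± 0.14 (SE, limma adjusted p = 0.0652). It was 1.15 (limma adjusted p = 0.00569) in the authors' values and 2.15-fold (limma adjusted p = 0.00493) with scaling to the 75th percentile.

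Of the other collagen receptors, Itga11, which binds fibril collagen, had the largest difference in size, -0.51 ± 0.17 (SE, limma adjusted p = 0.191). It was -0.92 (limma adjusted p = 0.0481) in the authors' values and -1.11 (limma adjusted p = 0.0244) with scaling to the 75th percentile. None of the 17 genes of collagen folding and modification passed. The largest differences there were 0.45 for P4hb, the subunit shared by the prolyl 4-hydroxylases, 0.30 for Crtap and -0.30 for Fkbp14. Serpinh1, the collagen chaperone, differed by -0.05, and P4ha1 and P4ha2, the catalytic prolyl hydroxylase chains, by -0.17 and -0.18. None of the 7 retained genes of procollagen processing passed, with differences of 0.30 for Bmp1, 0.21 for Adamts2 and -0.22 for Pcolce2. Colgalt2, which adds galactose to collagen, differed by -0.18 on the spike-in scale and by -0.92 (limma adjusted p = 0.0161) with scaling to the 75th percentile, but by 1.83 (limma adjusted p = 0.555) in the authors' values. It had no value in MI mouse 2 on the spike-in scale, so that 3 MI mice entered its fit. In the list of basement membrane partners and laminin receptors, Agrn, a basement membrane proteoglycan, differed by -0.40, and by -0.56 (limma adjusted p = 0.0211) with scaling to the 75th percentile. Itga7, an integrin chain of muscle that binds laminin, differed by 0.40. Nid1, Nid2 and Hspg2, which link the collagen IV and laminin networks, differed by 0.08, 0.27 and -0.04.

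**Figure D5:**
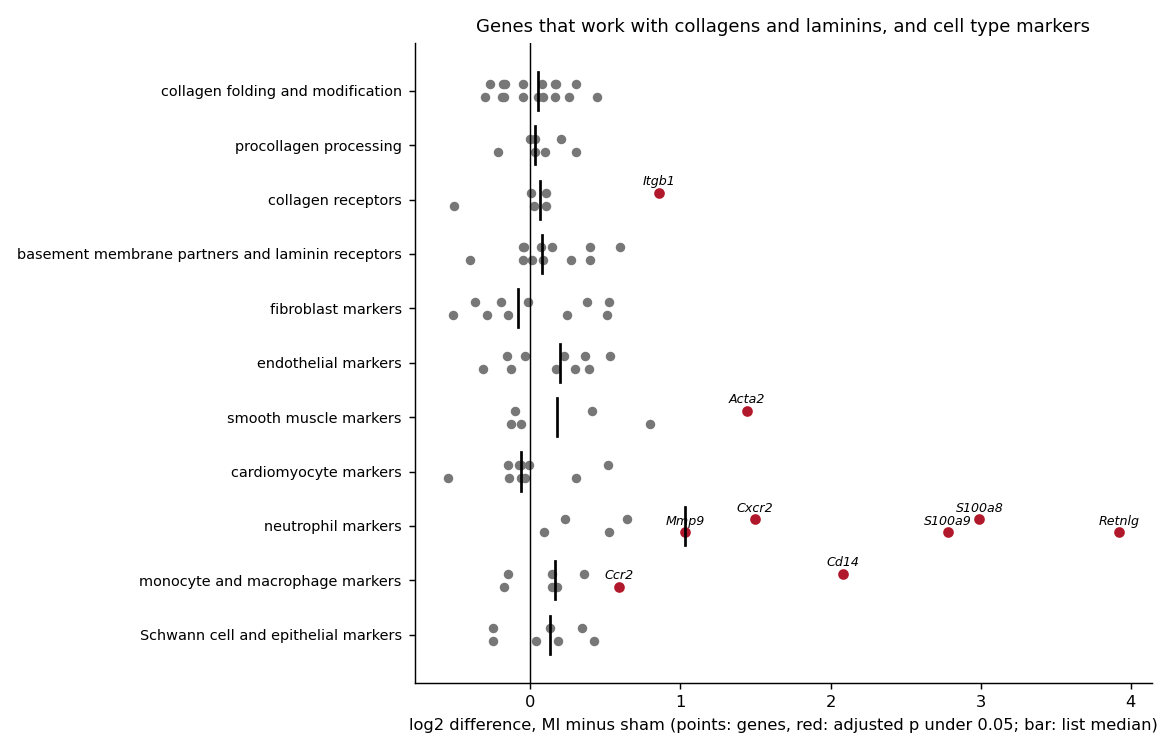
Log2 difference between MI and sham-operated mice (horizontal axis) for the genes of 4 lists that work with collagens and laminins and of 7 lists of cell type markers. Each point is a gene, red points (named) have an adjusted p under 0.05 in limma, and vertical bars are list medians. Itgb1 is the only red point in the 4 lists that work with collagens and laminins. Itga3 and Itga11 lie at 0.59 and -0.51, while 5 neutrophil markers lie at 1 or above.

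The tissue was checked against markers of the cells it holds, on the spike-in scale unless another is named. All 10 cardiomyocyte markers, among them Myh6, Tnnt2 and Actc1, were detected, and none passed the test. Of 10 fibroblast markers none passed, with a median difference of -0.08. Their mean level was 11.66 to 12.34 in MI mice and 11.94 to 12.34 in sham mice. Their differences were positive in 4 and negative in 6, from -0.52 (Lum, a proteoglycan of fibrils) to 0.52 (Fn1, fibronectin). Of 10 endothelial markers none passed, with a median of 0.20 and mean levels of 11.65 to 12.16 in MI mice and 11.53 to 12.00 in sham mice. Of 6 smooth muscle markers 1 rose, against 3.38% of all probes. This was Acta2, also an actin of myofibroblasts, by 1.45 ± 0.27 (SE, limma adjusted p = 0.0240). It passed in 3 of the 8 fits without 1 mouse. The differences of the smooth muscle list were positive in 3 and negative in 3, from -0.13 to 1.45, with a median of 0.18. The mean level of that list, Acta2 included, was 12.22 to 12.61 in MI mice and 11.74 to 12.24 in sham mice. Of the markers of blood-derived cells, 5 of 9 neutrophil markers rose, against 3.38% of all probes. Of 8 monocyte and macrophage markers 2, Cd14 and Ccr2, rose, against the same share. That list had a median difference of 0.16, with 6 positive and 2 negative differences, from -0.17 to 2.08. The mean level of the neutrophil list was 12.23 to 12.75 in MI mice and 10.83 to 11.15 in sham mice. Of 7 markers of Schwann cells and epithelium none passed, with mean levels of 8.58 to 8.97 in MI mice and 8.53 to 8.86 in sham mice. With scaling to the 75th percentile 1 fibroblast and 1 cardiomyocyte marker were lower, and 1 endothelial marker was higher. Of the Schwann cell and epithelial markers 1 was higher and 1 lower with that scaling. With it 2 smooth muscle, 6 neutrophil and 2 monocyte and macrophage markers were higher. Over all probes 8.7% were higher and 8.84% lower. In the authors' values the fibroblast, endothelial, cardiomyocyte, Schwann cell and epithelial markers did not pass. The part of these cell types in the differences of the members was not tested.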

How the data were processed

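Total RNA of the ventricles was labeled in 1 colour and hybridized to mouse SurePrint G3 arrays. The deposited intensities are the processed signal column written by Feature Extraction 11.0.1.1. According to the headers, local background had been subtracted and spatial trends removed, and arrays had not been normalized to each other. The median signal of each spot and of its background was also deposited as intensity. The authors' log2 values were made with limma and VSN from the spots that passed the background mark, with spike-in probes used to normalize the arrays.

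Here the model of VSN was fitted to 234 spots of 7 spike-in probes with an own implementation. Spots with outlier flags were left out, and the spots of a probe were averaged. Probes well above background on fewer than 4 arrays were left out, which left 34038 of 55681. Groups came from the sample labels, with 4 mice each. They were compared in limma 3.58.1 (R 4.3.3) without covariates, with adjustment over all retained probes. A member was called at a fold over 2 and an adjusted p under 0.05. Single values were also compared by exact two-sided permutation of the mice. Other computations used Python 3.11.15, numpy 2.4.6, scipy 1.17.1, pandas 2.3.3 and matplotlib 3.10.9. Precision is limited by the 8 arrays.

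Gene symbols and promoter windows came from RefSeq tables of GRCm38.p6, which paired 26582 probes with 1 gene symbol. Retained members could be named, apart from 1 that enters the counts but is not reported here. Values of each mouse were given for members past the adjusted p, for Col1a1, Col3a1, Col4a1, Lox and Plod2, and for the 5 largest differences in each direction, and also for Col4a5 and Loxl4, chosen after their values were seen. Members, companion lists and marker lists were chosen with earlier results of these data known. Companion genes were named when past the adjusted p, and otherwise for the 3 largest differences of a list. Nid1, Nid2, Hspg2, Serpinh1, P4ha1, P4ha2, Colgalt2, Lum and Fn1 were named after their values were seen. The alternatives were scaling to the 75th percentile, a shift by the spike-in signals, quantile normalization, normexp (offset 50) with quantile normalization on median signals, the authors' values, the median of spots, spots not above background as missing, leaving the detection filter out, requiring all 8 arrays, the mean over the probes of a gene, significance analysis of microarrays with 70 label permutations, an unmoderated t statistic, a block for array row or for replicate number, and each mouse left out. The rows alone and the differences within an array were added after seeing the data.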

Additional observations from a re-analysis of the deposited data

Results flagged for a closer look

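In 5 of 96 groups of 4 mice, 1 mouse stood far from the other 3 by Dixon's criterion, which chance meets in about 1 of 20 groups. MI mouse 2 was the lowest of its group for Col1a2, at 11.95 against 13.12 to 13.21, for Col6a1, at 11.17 against 11.92 to 12.01, and for Col6a2, at 9.74 against 10.34 to 10.43. Sham mouse 3 was the highest of its group for Col4a5, at 10.34 against 9.89 to 9.96. MI mouse 3 was the highest for Lox, at 9.15 against 8.92 to 8.96. These are values on the spike-in scale, on which MI mouse 2 was also below its group mean in every other member, as described above.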

How the results depend on the processing

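Of the 3 members higher at an adjusted p under 0.05, Lox passed under each alternative tried with a test, and Col4a1 and Col4a2 did not pass without a filter on detection, in the unmoderated test or with array row as a block, each of which left 1 member higher and 0 past 2-fold. No called member changed direction. Over all probes 885 were higher without that filter, 514 in the unmoderated test and 1083 with array row as a block. The count of members higher was 6 with scaling to the 75th percentile, with quantile normalization and with normexp, each with 2 lower, and 5 in significance analysis of microarrays. Over all probes 3116 were higher and 3065 lower with quantile normalization, and 3452 and 3605 with normexp. In significance analysis of microarrays 2233 of all probes were higher and 507 lower. The count past 2-fold was 4 with the spike-in shift and in the authors' values, against 1520 and 1013 of all probes. With 1 mouse left out at a time, 0 to 2 members passed 2-fold, 1 to 5 were higher and 0 were lower. Over all probes 576 to 2067 were higher in these fits, with the most without MI mouse 2. Without MI mouse 2, Loxl4 and Plod3 were added. Correlations of the deviations of mice with the same replicate number were 0.2767, 0.3638, 0.0868 and 0.0010. Those of mice with different numbers ran from -0.3692 to 0.4039, the latter for MI mouse 3 and sham mouse 1. The same number gave the highest value for MI mice 1 and 2 but not for MI mice 3 and 4. The numbers were not taken as pairs. With replicate number as a block 7 members were higher, with Lama4, Loxl4 and Plod3 among those added. With that block 4070 of 34038 probes were higher, so the count rose over all probes as well. Over all probes, 333 passed 2-fold, against 1444 with scaling to the 75th percentile and 1013 in the authors' values, and 1150 were higher and 121 lower, against 2963 and 3010 with that scaling. Dim probes limit the sizes given for Lox, Loxl3 and Loxl4. Changes of the 13 members without a retained probe could not be measured.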
